A study of Mus musculus with 4 samples.

Results

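The genes of the proteasome and of peptide loading onto MHC class I were compared between CX3CR1bright and CX3CR1low macrophages of the mouse ear dermis. Members were taken by symbol from array rows annotated to a single gene: the Psma to Psmg proteasome genes together with B2m, Tap1, Tap2, Tapbp, Tapbpl, Erap1, Nlrc5, H2-K1 and H2-D1. This gave 57 genes of the 22180 with such a row. Of these, 2 (Psmc3ip and Psme3ip1) matched by the spelling of the symbol and encode proteins that bind a proteasome component, not subunits. H2-D1 and Psma4 shared their rows with other genes and were therefore no members.

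RNA was hybridised to 4 Affymetrix whole-transcript arrays, 2 from CX3CR1bright and 2 from CX3CR1low cells. All mice were untreated adult C57Bl/6 animals of the genotype Cx3cr1+/gfp, so both subsets carried GFP in place of 1 Cx3cr1 allele and retained a single working copy of the fractalkine receptor gene. Each sample was sorted from the digested skin of 3 to 6 pooled mice, with 2 separate litters behind the 2 arrays of each subset. The deposited values are RMA levels on the log2 scale, with array medians of 3.65 to 3.68. Of 12 measured macrophage markers, among them Csf1r and Adgre1, the mean level was 9.97 and 9.96 on the CX3CR1bright arrays and 10.1 and 10.2 on the CX3CR1low arrays. Without overlap, 2 of the 12 were higher and 6 lower in CX3CR1bright cells, beside 18.9% and 31.5% of all tested genes. Their median difference was -0.33. Cx3cr1, the gene for which the subsets are named, served as a check of the labels and is not a finding. It stood at 8.42 and 8.44 in CX3CR1bright, against 3.63 and 3.60 in CX3CR1low cells, a difference of 4.82 ± 0.18 (limma, adjusted p = 0.00966). It no longer passed with the replicate block (adjusted p = 0.129) or without CX3CR1bright replicate 2 (0.0516), CX3CR1low replicate 1 (0.241) or CX3CR1low replicate 2 (0.248), and the 2 subsets did not overlap on any array.

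The proteasome is a barrel that cuts ubiquitin-tagged proteins into short peptides. Its 20S core has outer rings of alpha subunits, which gate the entrance, and inner rings of beta subunits, of which Psmb5, Psmb6 and Psmb7 carry the cutting sites. Under interferon-gamma, and constitutively in many haematopoietic cells, newly made cores take up Psmb8, Psmb9 and Psmb10 in their place and are then called immunoproteasomes. The 19S cap recognises and unfolds substrates, and peptides pass through the TAP transporter into the endoplasmic reticulum, where tapasin and trimming enzymes fit them to class I heavy chains bound to beta-2-microglobulin.

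Between the subsets, these genes differed little. Of the 57 members, 54 passed the filter for expression (at least 2 of the 4 arrays above the array's own median), and those 54 lay above the median on every array, so none was tested through 1 subset alone. Of these 54, 0 passed an adjusted p of 0.05 (limma across 13133 genes), where 0.137% of all tested genes did. At an unadjusted p under 0.05 (limma), 1 member was higher and 3 were lower in CX3CR1bright cells, or 1.85% and 5.56%, against 7.03% and 11.8% of all tested genes. Differences are CX3CR1bright minus CX3CR1low throughout. For 50 members the difference was below 0.5 on the log2 scale, and 2, Psmb3 and Tapbp, were at least 2-fold apart, as were 6.12% of all tested genes. For 46 members the 95% interval of the difference lay wholly within a 2-fold change in either direction.

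The sign of the differences was mixed. The median over the 54 members was 0.023, with 29 positive and 25 negative, against a median of -0.070 and 42.5% positive over all tested genes. The values of the subsets did not overlap for 15 members that were higher and 10 that were lower, 27.8% and 18.5% of the members, where the background was 18.9% and 31.5%. This split depended on the scaling: 38 members were positive after quantile normalization or cyclic loess of the deposited values, with 23 higher and 7 lower without overlap after cyclic loess, where the background was 25.2% and 24.1%. The median over all tested genes moved to -0.01 after quantile normalization and to 0.02 after cyclic loess. The median over the members also turned negative without CX3CR1bright replicate 1 (-0.019, 26 positive) or CX3CR1low replicate 2 (-0.023, 24 positive).

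**Figure D1:**
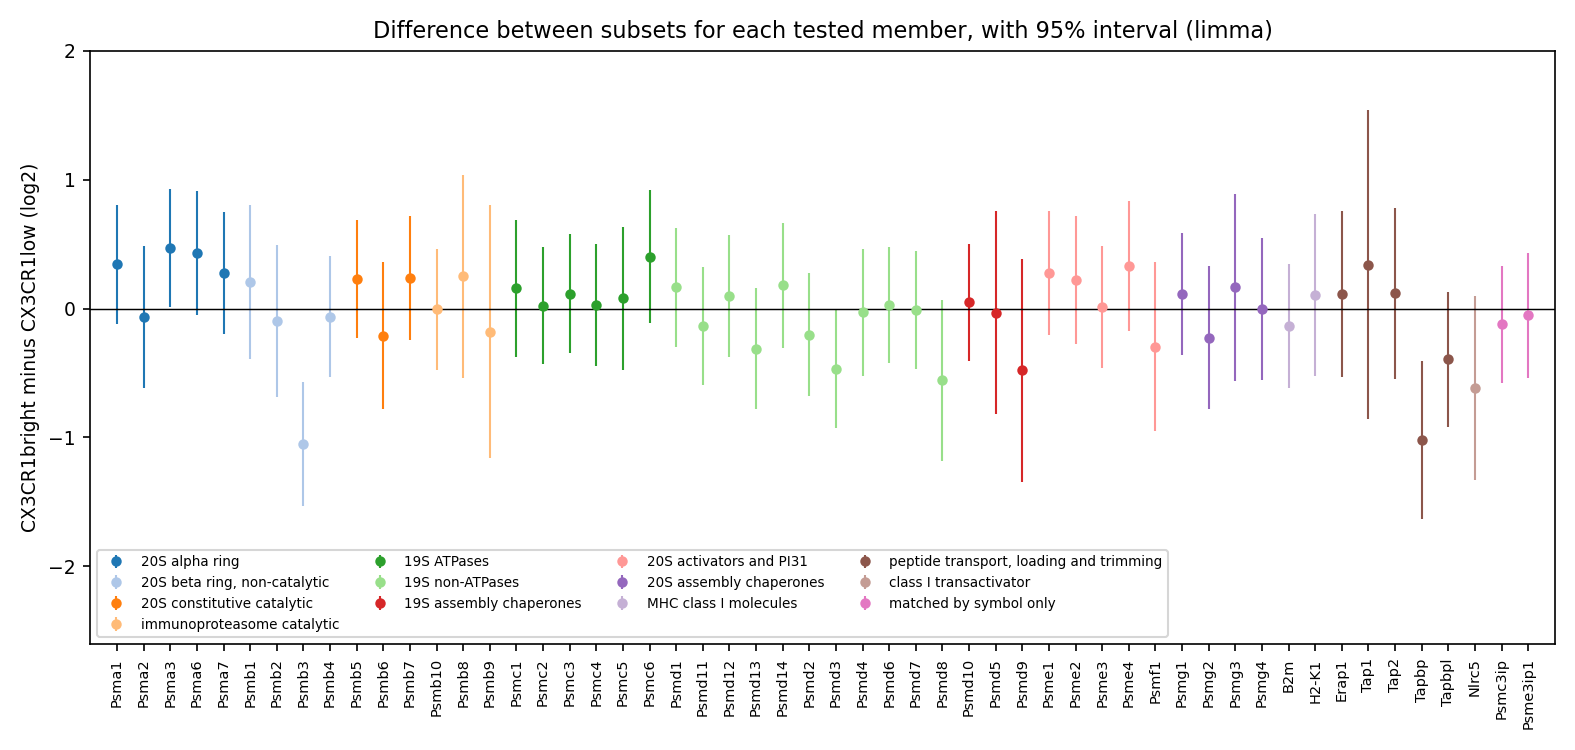
Difference between CX3CR1bright and CX3CR1low macrophages (vertical axis, log2) for each of the 54 tested members, coloured by role; points are differences of subset means (n = 2 arrays each) and bars are 95% intervals from limma. Most intervals span 0, and Psmb3 and Tapbp stand lowest at -1.05 and -1.02.

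The immunoproteasome subunits showed no consistent shift between the subsets. Psmb8, the inducible chymotrypsin-like subunit, stood at 8.28 and 7.63 on the CX3CR1bright arrays and at 7.96 and 7.44 on the CX3CR1low arrays. Psmb9, the inducible counterpart of the caspase-like site, stood at 8.38 and 7.37 in CX3CR1bright against 8.29 and 7.81 in CX3CR1low cells. Psmb10, the inducible trypsin-like subunit, stood at 9.37 and 9.21 in CX3CR1bright against 9.32 and 9.27 in CX3CR1low cells. In all 3 the ranges of the subsets overlapped, and in all 3 the arrays of each subset lay further apart than the subset means did. The differences were 0.25 ± 0.31 (SE) for Psmb8, -0.18 ± 0.39 for Psmb9 and -0.0051 ± 0.19 for Psmb10, with adjusted p-values of 0.724, 0.853 and 0.991 (limma). The 95% intervals ran from -0.54 to 1.04 for Psmb8, from -1.16 to 0.80 for Psmb9 and from -0.47 to 0.46 for Psmb10, so a 2-fold difference lay within reach for Psmb8 and Psmb9 and outside the interval for Psmb10. The sign of Psmb8 turned without CX3CR1bright replicate 1 (-0.075) or CX3CR1low replicate 2 (-0.0083), and that of Psmb9 without CX3CR1bright replicate 2 (0.33) or CX3CR1low replicate 1 (0.058). Psmb10 turned without CX3CR1bright replicate 2 (0.071) or CX3CR1low replicate 1 (0.024), and after quantile normalization (0.097) or cyclic loess (0.12).

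Within a subset, Psmb8 and Psmb9 had pooled SDs of 0.42 and 0.56, against 0.048 for Psmb5 and 0.22 for Psmb6. Psmb10 had 0.081, against 0.105 for Psmb7. Psmb5, the chymotrypsin-like subunit, stood at 10.04 and 10.08 in CX3CR1bright against 9.88 and 9.79 in CX3CR1low cells, and Psmb7, the trypsin-like subunit, at 9.13 and 8.97 against 8.88 and 8.74. Both were higher on each CX3CR1bright array than on either CX3CR1low array, by 0.23 ± 0.18 and 0.24 ± 0.19 (limma, adjusted p = 0.555 and 0.559). Psmb6, the caspase-like subunit, stood at 9.37 and 8.98 in CX3CR1bright against 9.49 and 9.28 in CX3CR1low cells and overlapped (-0.21 ± 0.23; 95% interval -0.78 to 0.36).

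The balance of inducible to constitutive subunits was read as a within-array difference, whose absolute size has no meaning because probe sets respond differently, but whose change between arrays can be compared. Psmb8 minus Psmb5 was -1.77 and -2.45 on the CX3CR1bright arrays and -1.91 and -2.34 on the CX3CR1low arrays. Psmb9 minus Psmb6 was -0.99 and -1.61 in CX3CR1bright and -1.20 and -1.46 in CX3CR1low cells. In both pairs the CX3CR1low values lay between the CX3CR1bright ones, and the subset means differed by 0.021 and 0.030. Psmb10 minus Psmb7 was 0.24 on each CX3CR1bright array, against 0.44 and 0.52 on the CX3CR1low arrays. This pair did not overlap and its mean was lower in CX3CR1bright cells by a difference of -0.24, made up of 0.24 in Psmb7 and -0.0051 in Psmb10. Averaged over the 3 pairs, the inducible minus constitutive level was -1.06 ± 0.31 in CX3CR1bright and -0.99 ± 0.14 in CX3CR1low cells (SD, n = 2 each), a difference of -0.064 that is smaller than either SD. No test was made of this score over chosen genes.

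**Figure D2:**
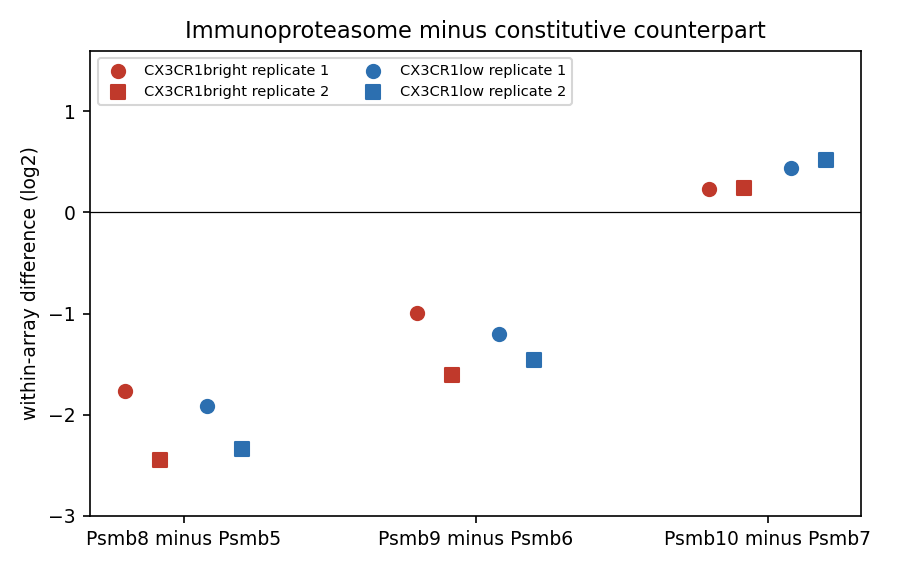
Within-array difference in RMA level (vertical axis, log2) between each immunoproteasome subunit and its constitutive counterpart; each point is 1 array, red CX3CR1bright and blue CX3CR1low, circles replicate 1 and squares replicate 2. For Psmb8 and Psmb9 the red points enclose the blue ones, and for Psmb10 minus Psmb7 both red points (0.24) lie below the blue ones (0.44 and 0.52).

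Among the class I genes, tapasin stood apart. Tapbp, which holds empty class I molecules at the peptide transporter, stood at 8.88 and 8.35 in CX3CR1bright against 9.66 and 9.62 in CX3CR1low cells. Both CX3CR1bright arrays lay below both CX3CR1low arrays, by a mean of -1.02 ± 0.24 or 2.03-fold, but this did not pass over all genes (limma, adjusted p = 0.136; unadjusted p = 0.00743). A dimmer row of the same gene ran the same way, at 5.14 and 5.13 against 5.55 and 5.79, a difference of -0.54. With a stricter filter, all 4 arrays above the 75th percentile, the adjusted p of Tapbp was 0.0429 (limma over 6141 genes), and over the other settings it ran from 0.0628 to 0.510. The related gene Tapbpl, whose product edits peptides on class I molecules, stood at 6.34 and 6.22 in CX3CR1bright against 6.84 and 6.51 in CX3CR1low cells, lower without overlap by -0.39 ± 0.21 (limma, adjusted p = 0.375). Nlrc5, the transactivator of class I genes, stood at 6.39 and 5.74 in CX3CR1bright against 6.83 and 6.53 in CX3CR1low cells. It too was lower without overlap, by -0.62 ± 0.28 (limma, adjusted p = 0.319), and without CX3CR1bright replicate 2 or replicate 1 the difference was -0.30 or -0.94. Of the 8 tested class I members, these 3 were lower without overlap and 0 were higher. The shares over all tested genes were 31.5% and 18.9%.

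The genes of the class I molecule itself overlapped between the subsets. B2m, the invariant light chain, stood at 12.3 and 12.1 in CX3CR1bright against 12.4 and 12.3 in CX3CR1low cells, near the top of the arrays' range. The heavy chain gene H2-K1, whose probes may also pick up related class I genes, stood at 10.8 and 10.3 in CX3CR1bright against 10.6 and 10.3 in CX3CR1low cells. The difference was -0.13 ± 0.19 for B2m (95% interval -0.61 to 0.35) and 0.11 ± 0.25 for H2-K1 (-0.52 to 0.73). The transporter subunit Tap1 stood at 9.07 and 8.01 in CX3CR1bright against 8.68 and 7.72 in CX3CR1low cells, and its partner Tap2 at 7.02 and 6.59 against 6.92 and 6.46. The trimming peptidase Erap1 stood at 7.06 and 7.64 in CX3CR1bright against 7.19 and 7.29 in CX3CR1low cells. These 3 genes overlapped between the subsets, with differences of 0.34 ± 0.47, 0.12 ± 0.26 and 0.11 ± 0.25, and the sign turned without CX3CR1bright replicate 1 or CX3CR1low replicate 2 for Tap1 and Tap2, and without CX3CR1bright replicate 2 for Erap1. In sorted pools, fewer cells of a type and less RNA per cell cannot be told apart.

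**Figure D3:**
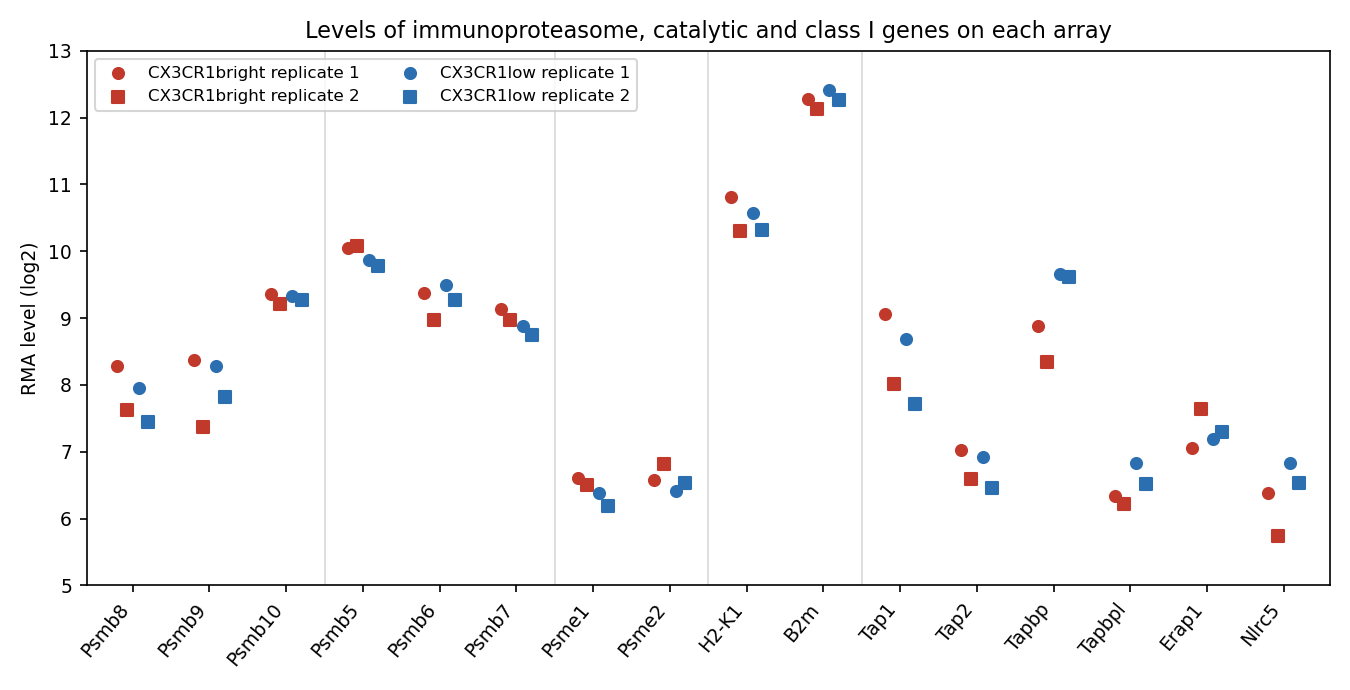
RMA level (vertical axis, log2) of 16 members on each array, red CX3CR1bright and blue CX3CR1low, circles replicate 1 and squares replicate 2. Tapbp separates the colours (8.88 and 8.35 against 9.66 and 9.62), while Tap1, Psmb8 and Psmb9 separate the circles from the squares.

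For Tap1, Psmb8 and Psmb9 the larger contrast lay between the arrays of a subset. In Tap1 replicate 1 exceeded replicate 2 by 1.06 in CX3CR1bright and by 0.96 in CX3CR1low cells, in Psmb9 by 1.01 and 0.47, and in Psmb8 by 0.65 and 0.52. The pooled within-subset SD of Tap1, 0.71, was above that of 97.0% of tested genes, that of Psmb9 (0.56) above 92.9% and that of Psmb8 (0.42) above 84.1%. The comparison of replicate numbers was chosen after the values were seen, and the labels do not say that the same number marks the same litter in both subsets. Replicate 1 was the higher array in both subsets for 3 of 3 immunoproteasome subunits and for 7 of 8 class I members, all but Erap1, against 26.5% of all tested genes. It was so for 28 of all 54 tested members (51.9%). It also held for 13 of 29 constitutive 20S and 19S subunits (44.8%), among them all 4 non-catalytic beta subunits. The median within-subset SD of these 29 was 0.099, against 0.42 for the immunoproteasome, 0.29 for the class I members and 0.22 for all tested genes. Steps were not confined to these genes: the chaperone gene Psmd9 had steps of 0.76 and 0.58, wider in both subsets than those of Psmb8, and Psmd5 had -0.83 in CX3CR1bright and 0.060 in CX3CR1low cells. Psmb10, with 0.15 and 0.058, and B2m, with 0.14 and 0.15, had narrow steps.

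Some other interferon-gamma targets showed wider gaps in the same sense, which was noticed after their values were seen. The chemokine gene Cxcl9 stood at 9.38 and 5.62 in CX3CR1bright against 8.75 and 5.97 in CX3CR1low cells. Iigp1, an immunity-related GTPase, stood at 7.59 and 5.65 against 7.73 and 5.59, and Igtp, of the same family, at 6.80 and 4.51 against 6.53 and 5.29. In these 3 genes both replicate 1 arrays lay above both replicate 2 arrays, whichever the subset. Of 24 tested genes in a list of interferon-gamma response genes and their regulators, 13 had replicate 1 higher in both subsets and 5 had replicate 2 higher. Among those 13, Gbp7 (0.48 in CX3CR1bright and 0.25 in CX3CR1low cells) and Cxcl10 (0.59 and 0.37) had narrower gaps than Tap1. In Xaf1 the sign differed between the subsets (0.64 and -0.87). Over all 13133 tested genes, replicate 1 was higher in both subsets for 26.5%, and replicate 2 for 3926 genes. Irf1, a transcription factor that drives immunoproteasome genes, stood at 7.05 and 6.53 in CX3CR1bright against 7.02 and 6.97 in CX3CR1low cells. Ifng, the cytokine gene, stood at 6.09 on CX3CR1bright replicate 1 and near the array medians on the other arrays, at 3.14 on CX3CR1bright replicate 2 and 3.59 and 3.17 on the CX3CR1low arrays.

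Markers of other cells also differed between these arrays. The mean level of 7 T cell markers (of 11 listed) was 6.00 and 5.44 on the CX3CR1bright arrays and 5.29 and 5.34 on the CX3CR1low arrays. Cd3g, a subunit of the T cell receptor complex, stood at 6.88 and 5.43 in CX3CR1bright against 4.83 and 4.64 in CX3CR1low cells. The mean of 11 keratinocyte markers was 6.06 and 7.93 in CX3CR1bright against 5.89 and 5.24 in CX3CR1low cells, that of 9 fibroblast markers 7.04 and 7.08 against 6.25 and 6.12, and that of 5 Langerhans cell markers 6.84 and 7.66 against 5.80 and 5.62. The T cell markers did not move as 1 group: Cd4 stood at 6.56 and 7.08 in CX3CR1bright against 8.67 and 8.84 in CX3CR1low cells, and Il7r at 9.81 and 9.81 against 8.32 and 8.19. Cd3e, at 4.79 and 3.81 in CX3CR1bright against 4.28 and 3.804 in CX3CR1low cells, was higher on replicate 1 in both subsets, as was Cd3g. The mean of 11 conventional dendritic cell markers was 6.11 and 5.97 in CX3CR1bright against 5.09 and 5.31 in CX3CR1low cells, and that of 6 mast cell markers 6.62 and 6.57 against 7.02 and 7.06. Both means separated the subsets, as the macrophage, T cell, fibroblast, Langerhans cell and keratinocyte means did, and keratinocyte markers were highest on CX3CR1bright replicate 2. Of the 11 dendritic cell markers, 7 were higher and 2, Irf4 and Kmo, lower without overlap, beside 18.9% and 31.5% of all tested genes. The single markers named here were chosen after their values were seen. Their part in the levels of the class I and proteasome genes was not tested.

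**Figure D4:**
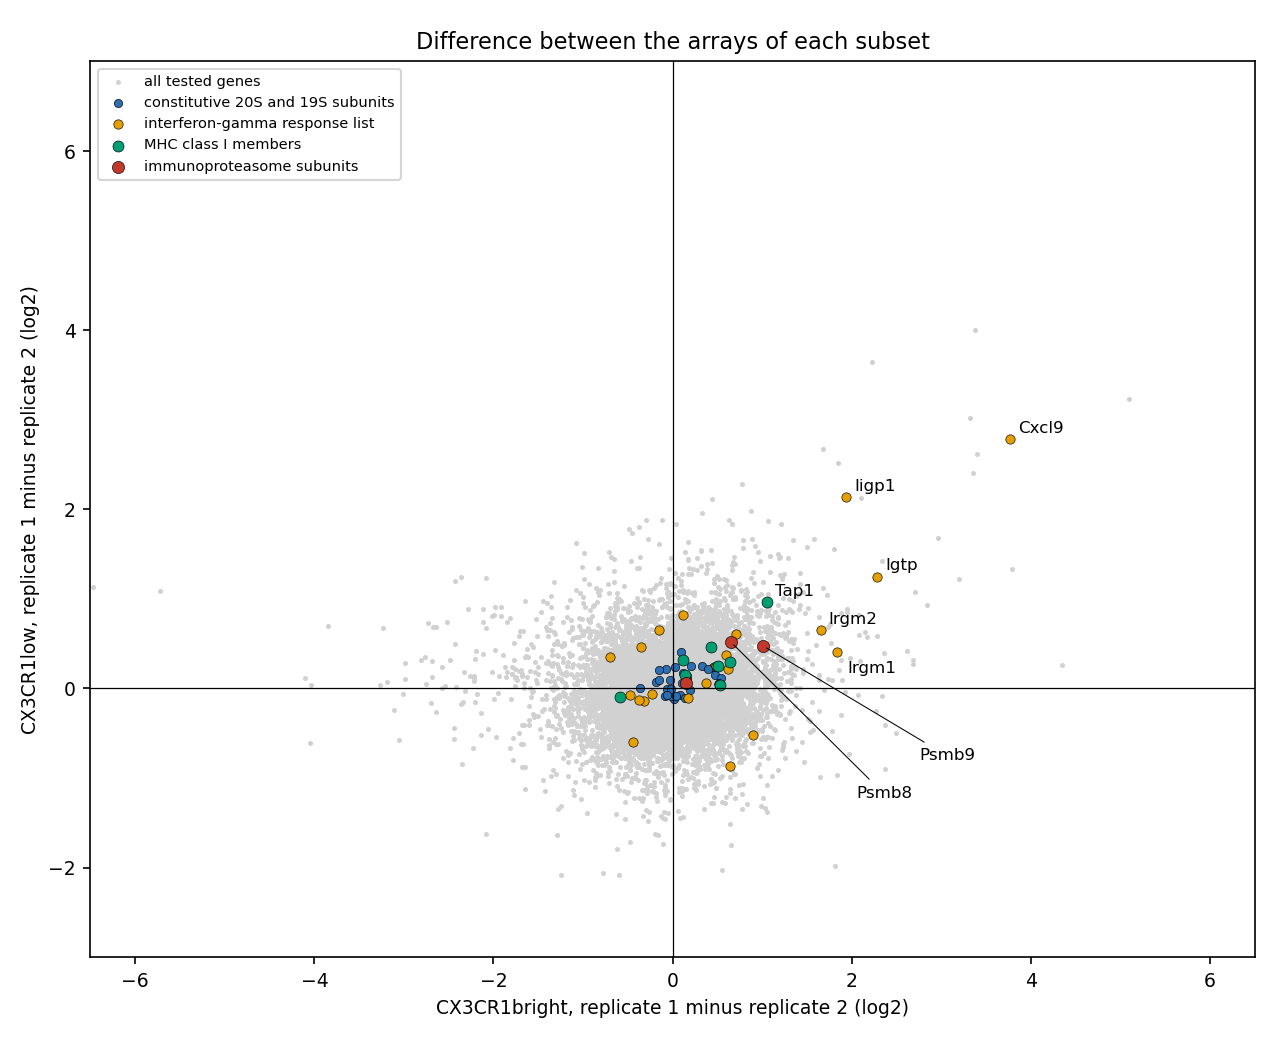
Replicate 1 minus replicate 2 (log2) in CX3CR1bright cells on the horizontal axis and in CX3CR1low cells on the vertical axis, for 13133 tested genes (grey), constitutive proteasome subunits (blue), interferon-gamma response genes (orange), class I members (green) and immunoproteasome subunits (red). Most constitutive subunits lie near the origin, while Tap1 (1.06 and 0.96), Psmb9 (1.01 and 0.47), Cxcl9 (3.77 and 2.79) and Iigp1 (1.94 and 2.14) lie to the upper right. The classes are not cleanly split. The constitutive Psmb1 (0.45 and 0.24) and Psmd8 (0.54 and 0.11) lie further out than Psmb10 (0.15 and 0.058) and B2m (0.14 and 0.15).

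Promoters are shown for the genes on which these comparisons turn. Psmb9 and Tap1 are neighbours transcribed in opposite directions from 1 stretch of 225 bases, and both were higher on the replicate 1 arrays. Psmb8 varied with them, B2m is the invariant light chain, Psmb5 is the constitutive counterpart of Psmb8, and Tapbp and Psmb3 were the lowest members in CX3CR1bright cells. RefSeq promoter entries of build GRCm38.p6 matched 46 of the 57 members, and the 250 bases before the annotated start were searched on both strands. Capitals mark matches to an interferon-stimulated response element core (GAAA, any 2 bases, GAAA), a gamma-activated site (TTCNNNGAA), a kappa-B site (the fixed string capitalised at 126 bases in B2m, there on the opposite strand), an antioxidant response element (TGACTCAGC) or a CCAAT box, and none of the matches shown overlap.
Psmb9-Tap1 shared promoter, chr17:34187331-34187555, plus strand: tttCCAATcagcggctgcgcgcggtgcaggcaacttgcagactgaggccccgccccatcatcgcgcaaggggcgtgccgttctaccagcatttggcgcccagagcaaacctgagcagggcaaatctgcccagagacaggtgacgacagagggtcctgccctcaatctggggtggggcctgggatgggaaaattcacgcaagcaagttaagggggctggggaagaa
Psmb8 promoter, chr17:34197945-34198194, plus strand: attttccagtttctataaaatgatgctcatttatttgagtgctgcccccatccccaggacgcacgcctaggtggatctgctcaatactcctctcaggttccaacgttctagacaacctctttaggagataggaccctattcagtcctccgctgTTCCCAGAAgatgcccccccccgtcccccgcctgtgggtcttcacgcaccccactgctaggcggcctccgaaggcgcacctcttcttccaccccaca
B2m promoter, chr2:122147437-122147686, plus strand: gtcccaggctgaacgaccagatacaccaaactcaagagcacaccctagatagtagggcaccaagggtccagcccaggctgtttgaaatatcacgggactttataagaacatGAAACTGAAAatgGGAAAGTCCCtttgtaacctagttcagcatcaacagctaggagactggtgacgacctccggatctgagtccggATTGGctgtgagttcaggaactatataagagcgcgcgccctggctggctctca
Psmb5 promoter, chr14:54617996-54618245, minus strand: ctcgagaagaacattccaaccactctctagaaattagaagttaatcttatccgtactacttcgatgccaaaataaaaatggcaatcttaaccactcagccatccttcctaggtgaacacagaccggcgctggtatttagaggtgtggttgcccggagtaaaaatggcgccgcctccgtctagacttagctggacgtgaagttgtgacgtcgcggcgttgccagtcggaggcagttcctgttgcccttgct
Tapbp promoter, chr17:33919228-33919477, plus strand: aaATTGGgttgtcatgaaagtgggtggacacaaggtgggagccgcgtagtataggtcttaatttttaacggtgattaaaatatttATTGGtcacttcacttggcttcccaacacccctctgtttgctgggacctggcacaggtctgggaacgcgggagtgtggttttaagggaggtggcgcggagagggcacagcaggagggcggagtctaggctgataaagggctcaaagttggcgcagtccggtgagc
Psmb3 promoter, chr11:97703184-97703433, plus strand: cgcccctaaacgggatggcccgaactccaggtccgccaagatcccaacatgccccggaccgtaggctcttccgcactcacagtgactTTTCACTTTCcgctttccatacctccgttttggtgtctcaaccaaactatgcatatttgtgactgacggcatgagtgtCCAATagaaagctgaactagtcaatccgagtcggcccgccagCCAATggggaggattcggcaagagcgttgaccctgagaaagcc
The Psmb8 promoter held a gamma-activated site match beginning 97 bases before the start, and B2m held a response element core at 139 and a kappa-B match at 126. Psmb3 held a response element core at 163 on the opposite strand, the stretch between Psmb9 and Tap1 held a CCAAT box alone, and the Psmb5 window held no match to the 5 motifs. Among all 32851 promoter windows, 2.98% held the response element core, 7.02% the gamma-activated site, 0.14% the kappa-B site, 0.39% the antioxidant element and 33.8% a CCAAT box. Among the 46 members with an entry the matching genes numbered 4, 2, 1, 0 and 20 in the same order of motifs. These members had 51 windows, and a gene counted if any of its windows matched. The counts per gene and the percentages per window are therefore in unlike units. A match is a string of letters and does not show binding, and the lack of an exact match does not show that an element is absent.

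In the 20S core, alpha subunits stood mostly higher in CX3CR1bright cells. Of 5 tested members, 4 were higher without overlap and Psma2 overlapped, with a median difference of 0.34, where 18.9% of all tested genes were higher without overlap. Quantile normalization gave 0.47 for that median, and cyclic loess 0.48, where 23% and 25.2% of all tested genes were higher without overlap. Psma3 stood at 10.2 and 10.1 in CX3CR1bright against 9.66 and 9.74 in CX3CR1low cells, the member with the smallest p among those that were higher (0.47 ± 0.18; limma, adjusted p = 0.257). Psma6 stood at 10.04 and 10.1 in CX3CR1bright against 9.75 and 9.53 in CX3CR1low cells (0.43 ± 0.19; limma, adjusted p = 0.310). Psma1 and Psma7 differed by 0.34 ± 0.18 and 0.28 ± 0.19. Each of these 4 genes was higher on both CX3CR1bright arrays, the subset means differed by less than 1.4-fold, and none passed the test. Psma5, though part of every core, had a row near the array medians (3.40 and 3.79 in CX3CR1bright, 3.64 and 3.29 in CX3CR1low cells) and was not tested. Psma8, found in testis, and Psmb11, of the thymic cortex, were likewise at 2.64 to 3.74 on all arrays.

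Of the non-catalytic beta subunits, Psmb3 went the other way. It stood at 4.40 and 4.28 in CX3CR1bright against 5.47 and 5.30 in CX3CR1low cells, a difference of -1.05 ± 0.19 or 2.07-fold, with no overlap. This was the smallest adjusted p of any member (0.0998, limma; unadjusted p = 0.00223). The row was dim, less than 2 log2 units above the array medians. Psmb1, Psmb2 and Psmb4 differed by 0.21 ± 0.24, -0.095 ± 0.23 and -0.064 ± 0.18, and all 3 overlapped.

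The 19S cap showed no common direction. The 6 ATPases, which unfold substrates, all had differences above 0 (0.021 to 0.40, median 0.097), and Psmc6 led with 9.14 and 8.94 in CX3CR1bright against 8.77 and 8.51 in CX3CR1low cells (0.40 ± 0.20; limma, adjusted p = 0.364). A second, dimmer row of Psmc2 disagreed with the row used, at -0.54 against 0.021, and with CX3CR1bright replicate 2 or CX3CR1low replicate 2 left out 4 of the 6 were positive. Of the 11 non-ATPase subunits, 3 were higher and 5 lower without overlap, beside 18.9% and 31.5% of all tested genes, with a median of -0.030 that turned positive after quantile normalization (0.10) and cyclic loess (0.11). Psmd3, a lid subunit, stood at 7.63 and 7.65 in CX3CR1bright against 8.07 and 8.15 in CX3CR1low cells (-0.47 ± 0.18; limma, adjusted p = 0.257). Psmd8, another lid subunit, stood at 10.1 and 9.55 in CX3CR1bright against 10.4 and 10.3 in CX3CR1low cells (-0.56 ± 0.25; limma, adjusted p = 0.308). The lid subunits Psmd13 and Psmd11 differed by -0.31 ± 0.19 and -0.14 ± 0.18 and the base scaffold Psmd2 by -0.20 ± 0.19. Psmd14, the deubiquitinase of the cap, and the scaffold Psmd1 were higher without overlap by 0.18 ± 0.19 and 0.16 ± 0.18.

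Activators and assembly factors differed little. Psme1 and Psme2, which form the interferon-inducible activator ring on the core, stood at 6.61 and 6.51 in CX3CR1bright against 6.38 and 6.19 in CX3CR1low cells, and at 6.58 and 6.82 against 6.42 and 6.53. Both were higher on each CX3CR1bright array, by 0.27 ± 0.19 and 0.22 ± 0.20 (limma, adjusted p = 0.501 and 0.597). The nuclear activator gene Psme3 stood at 5.78 and 5.88 in CX3CR1bright against 5.75 and 5.89 in CX3CR1low cells (0.012 ± 0.19), and Psme4, another nuclear activator, was higher without overlap by 0.33 ± 0.20. The regulator gene Psmf1 and the chaperone gene Psmd9 had negative differences with overlap, -0.30 ± 0.26 and -0.48 ± 0.34. Of the other cap chaperone genes, Psmd5 overlapped (-0.034 ± 0.31) and Psmd10 was higher without overlap by 0.048 ± 0.18. The 4 assembly chaperones Psmg1 to Psmg4 lay between -0.23 and 0.17, all with overlap. Psmc3ip and Psme3ip1 differed by -0.12 ± 0.18 and -0.054 ± 0.19.

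Genes of the same pathways outside the member list were taken from lists of proteasome cofactors, class I folding and trimming genes, and interferon-gamma response genes. None of them, 0 of 14, 0 of 18 and 0 of 24 tested, passed the adjusted threshold (limma), and at an unadjusted p under 0.05 they had 0, 1 and 2 higher and 0 lower genes, where 7.03% of all tested genes were higher and 11.8% lower. Their median differences were -0.072, -0.033 and -0.009, all of which turned positive after quantile normalization (0.05, 0.09 and 0.09) and cyclic loess (0.06, 0.10 and 0.12). Among cofactors, Ecpas, a proteasome adaptor, was higher by 0.38 ± 0.18, and Ngly1, a cytosolic glycanase, lower by -0.49 ± 0.21. Sec61b, a subunit of the translocon, stood at 5.505 and 5.80 in CX3CR1bright against 5.03 and 4.99 in CX3CR1low cells (0.64 ± 0.20; limma, adjusted p = 0.190). The non-classical class I genes H2-T23 and H2-T24 were lower without overlap by -0.44 ± 0.25 and -0.39 ± 0.20. Their relatives H2-M3 and H2-Q4 overlapped, with differences of 0.11 and -0.14. Of the 18 tested genes of this class I list, 2 were higher and 3 lower without overlap, beside 18.9% and 31.5% of all tested genes. The remaining named genes of these lists differed by -0.36 ± 0.21 (the ubiquitin shuttle gene Ubqln2), -0.21 ± 0.18 (Ubqln1), 0.28 ± 0.20 (the deubiquitinase gene Usp14), 0.20 ± 0.18 (the aminopeptidase gene Npepps) and 0.23 ± 0.28 (the peptidase gene Blmh).

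In the interferon-gamma list the widest differences lay upstream and in a chemokine. Jak2, a kinase of the interferon-gamma receptor and of other cytokine receptors, stood at 9.96 and 10.2 in CX3CR1bright against 8.77 and 8.84 in CX3CR1low cells. Cxcl10 stood at 6.22 and 5.63 in CX3CR1bright against 4.76 and 4.39 in CX3CR1low cells. Both were higher on each CX3CR1bright array, by 1.27 ± 0.19 or 2.41-fold and by 1.34 ± 0.28 or 2.54-fold, with adjusted p-values of 0.0845 and 0.112 (limma). The adjusted p of Jak2 was 0.0163 with the stricter filter and 0.0201 under an intensity trend of the variance, and over the other settings it ran from 0.0707 to 0.451. The receptor gene Ifngr1 differed by 0.43 ± 0.21, and Gbp7 and Irf8 by -0.43 ± 0.24 and -0.42 ± 0.24 (limma, adjusted p = 0.345, 0.409 and 0.414).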

How the data were processed

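Levels were measured on 4 arrays, and n is 2 per subset. The deposited log2 levels came from Expression Console 1.4, which ran RMA according to the submitters' processing notes; RMA corrects background, equalises the arrays and summarises probes. The build is not given in the sources used. Of 34390 rows, 23521 carried 1 gene symbol in the platform annotation, 1814 several and 9055 none; 23328 of the first matched RefSeq (GRCm38.p6) by Entrez identifier. The brightest row per gene was used, and 13133 genes passed the filter. limma 3.58.1 (R 4.3.3; lmFit and eBayes, two-sided) compared the subsets, with Benjamini-Hochberg adjustment over all 13133 genes at 0.05. The fit had 2 residual and 3.28 prior degrees of freedom, and the number of arrays limits the precision. The p-values reflect variation among pooled samples. The procedure was tested on simulated data. Members and lists were chosen with earlier results of these data known. Named were all class I members, Psmb5 to Psmb10, Psme1 to Psme3 and Cx3cr1. By their p in these data, the 6 other proteasome genes with the smallest p and no overlap in each direction were named. So were the 5 genes with the smallest p of each further list. Other genes were chosen after their values were seen. Alternatives were other filters, row averaging, 3 scalings, variance priors, a replicate block and each array left out. H2-D1 and Psma4 were not analysed here as single genes.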

Additional observations from a re-analysis of the deposited data

How the results depend on the processing

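Of the member results, the count past the adjusted threshold was 0 under every setting but the stricter filter, where Tapbp passed (limma). That was 1 of 48 tested members, beside 435 of all 6141 genes tested with that filter. Psmb3 was not tested there: its CX3CR1bright levels of 4.40 and 4.28 lay below the 75th percentiles of those arrays, 5.44 and 5.45. The count over all tested genes, 18, was 1 without a filter, after quantile normalization and with a robust prior, 435 with the stricter filter, 33 after cyclic loess, 308 with an intensity trend and 0 with the replicate block; with 1 array left out it ran from 0 to 154 (limma, with 1212 to 2898 genes at an unadjusted p under 0.05). Members that were higher at an unadjusted p under 0.05 numbered 2 with the stricter filter, 3 after quantile normalization and with an intensity trend, 4 after cyclic loess, 0 after median centring and 0 with the replicate block, against 1 in the analysis reported; with any 1 array left out they numbered 0. Lower members numbered 2 to 5 with 1 array left out. At that unadjusted threshold (limma), 7.03% of all tested genes were higher and 11.8% lower in the analysis reported. The matching shares by direction are not given for the other settings. The member counts there therefore do not show whether members were called more or less often than other genes. With the replicate block, 0 members passed the adjusted threshold. The labels do not say that replicate numbers pair the samples, and over tested genes the deviations of same-numbered arrays correlated at 0.16. The inducible minus constitutive difference ran from -0.28 to 0.15 with 1 array left out. Signs turned for 8 named members and for Blmh. Psmb10 was positive after quantile normalization (0.097) and cyclic loess (0.12). With 1 array left out, the difference ran from -0.19 to 0.87 for Tap1, from -0.11 to 0.35 for Tap2, from -0.18 to 0.40 for Erap1, from -0.15 to 0.36 for H2-K1, from -0.075 to 0.58 for Psmb8, from -0.68 to 0.33 for Psmb9, from -0.081 to 0.071 for Psmb10, from -0.061 to 0.086 for Psme3 and from -0.12 to 0.58 for Blmh. The cause was not tested beyond the fewer samples of these fits.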

Other observations

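Rows annotated to a member together with another gene entered no comparison. The brighter of 2 rows shared by Psma4 and AY074887 stood at 8.51 and 8.40 in CX3CR1bright against 8.38 and 8.28 in CX3CR1low cells, a difference of 0.12. The dimmer one stood at 2.63 and 3.01 in CX3CR1bright against 2.82 and 3.06 in CX3CR1low cells, a difference of -0.12. A row shared by H2-Q2 and H2-D1 was dim, at 3.86 and 3.66 in CX3CR1bright against 4.06 and 4.25 in CX3CR1low cells. A row shared by Tapbp and Zbtb22 stood at 4.75 and 4.85 in CX3CR1bright against 5.46 and 4.90 in CX3CR1low cells, lower by a difference of -0.38, the sign that both rows of Tapbp alone had. A row shared by Psme2 and 2 other annotated genes ran against the row of Psme2 alone (0.22), at 5.79 and 5.003 in CX3CR1bright against 6.10 and 5.92 in CX3CR1low cells, lower without overlap by a difference of -0.62. A row shared by Psmd1 and Armc9 stood at 4.61 and 4.81 in CX3CR1bright against 4.65 and 4.68 in CX3CR1low cells, a difference of 0.05.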
